A study of Mus musculus with 5 samples.

Results

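The metallothionein genes Mt1, Mt2 and Mt3, and Mtf1, the gene of the transcription factor that controls metallothionein genes, were described in brain RNA of 5 C57BL/6 mice, all male and 30 months old. The 4 genes were taken by symbol, through their Ensembl identifiers, from the 47729 genes of the counts table. All 4 averaged 10 counts or more, the minimum for testing, as did 16318 genes in total. C57BL/6 is an inbred laboratory strain, the tissue is labelled as brain with no region, and all 5 samples form a single group, so the data hold no contrast of age, sex or treatment. The samples are named by their label numbers, as mice 7, 8, 9, 10 and 11, and errors are SDs over them (n = 5). Nothing in the labels ties each sample to a separate dissection or RNA preparation, so the spread between samples may in part be technical.

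Metallothioneins are small proteins whose many cysteines bind zinc and copper, and they buffer these metals and scavenge oxidants. In the brain Mt1 and Mt2 are made mainly by astrocytes and by cells lining vessels and ventricles, and they are induced by metals, glucocorticoids and inflammatory cytokines. Mt3 is enriched in the brain, is found in neurons and astrocytes, binds zinc and copper as well, and responds little to metals. Mtf1 encodes a zinc finger protein that senses free zinc and binds metal response elements in the DNA before metallothionein genes. Mt4, the remaining gene of the family, belongs to stratified epithelia.

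The libraries held between 15392006 and 18723390 counts, most of them in mouse 11. That library also stood apart in base composition. Of 3594 tested genes with a GC content of at least 55%, 83.6% had their highest level there, against 35.8% of all genes tested. Markers of neurons and glia matched the labelled tissue: all 10 neuronal and all 13 astrocyte markers averaged 10 counts or more. Of 4 liver genes, Serpina1a had 0 counts in every library, Alb averaged 2.4 and Apoa2 11.6 counts, and Ttr, which the choroid plexus also makes, averaged 8090.2.

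In the GRCm38 genome the metallothionein genes form a cluster of 43131 bases on the plus strand of chromosome 8, from 94137197 to 94180327 in the GENCODE M21 annotation. Mt4 comes first, followed by Mt3 (ENSMUSG00000031760, 94152607 to 94154146), Mt2 (ENSMUSG00000031762, 94172664 to 94173568) and Mt1 (ENSMUSG00000031765, 94179082 to 94180327). Between Mt2 and Mt1 lie 5513 bases, and between Mt3 and Mt2 18517 bases. Mtf1 (ENSMUSG00000028890) lies on the plus strand of chromosome 4, from 124802104 to 124849800. All 4 are protein-coding genes. An antisense gene, Gm45774, covers 432 exonic bases of Mt2 in M21 and has no row in the counts table. The gene 1110065P20Rik covers 721 exonic bases of Mtf1 on the opposite strand, with 29 to 143 counts. The strand setting of the counting was not stated, and reads from these overlaps therefore cannot be told apart. No transcript of another gene in M21 shares a run of 50 bases with Mt1 or Mt3, and for Mt2 and Mtf1 only these antisense genes do.

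The DNA before Mt1, Mt2 and Mt3 is shown because the metal response element, which Mtf1 binds, is the known link between the regulator and the family. The sequences are the 250 bases before the RefSeq start of each gene in GRCm38.p6, plus strand, 5′ to 3′. Capitals mark matches on either strand to the core of the element, spelled here as TGCACNC or TGCGCNC (N is any base). A match on one strand can overlap a match on the other.
Mt1, chr8:94178839-94179088: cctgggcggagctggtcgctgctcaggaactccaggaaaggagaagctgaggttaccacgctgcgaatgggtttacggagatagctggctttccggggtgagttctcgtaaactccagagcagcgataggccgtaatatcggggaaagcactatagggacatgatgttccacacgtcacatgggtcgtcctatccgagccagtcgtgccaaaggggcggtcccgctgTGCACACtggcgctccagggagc
Mt2, chr8:94172368-94172617: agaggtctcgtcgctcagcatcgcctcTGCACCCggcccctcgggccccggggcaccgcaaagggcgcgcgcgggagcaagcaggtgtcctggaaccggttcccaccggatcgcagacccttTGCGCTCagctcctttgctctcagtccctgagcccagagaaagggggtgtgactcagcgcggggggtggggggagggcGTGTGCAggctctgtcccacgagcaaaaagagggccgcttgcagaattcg
Mt3, chr8:94152357-94152606: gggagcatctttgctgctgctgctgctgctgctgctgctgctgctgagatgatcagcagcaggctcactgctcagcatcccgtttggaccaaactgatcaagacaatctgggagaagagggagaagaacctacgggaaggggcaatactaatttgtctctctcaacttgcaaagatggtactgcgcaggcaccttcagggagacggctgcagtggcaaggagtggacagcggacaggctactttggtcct
Further matches lay within the 50 bases after each start, and short stretches around them are shown with the same capitals.
Mt1, chr8:94179089-94179117: tcTGCACTCcgcccgaaaagTGCGCTCgg
Mt2, chr8:94172618-94172632: ggtcGTGCGCAggcc
Mt3, chr8:94152630-94152644: gcagTGCACACacac

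Over the whole window of 300 bases, Mt2 held 4 matches, Mt1 held 3, Mt3 and Mt4 held 1 each and Mtf1 held 0. Among 32851 RefSeq windows of the same length, 25.7% held at least 1 match, 1.97% at least 3 and 0.517% at least 4. The only Mt1 match before the start lay 23 to 17 bases from it, and its other matches lay in bases 3 to 9 and 21 to 27 after it. Mt2 had matches 223 to 217, 128 to 122 and 50 to 44 bases before its start. A match is a run of letters, not a bound site. M21 also holds later starts, 122 and 152 bases after the RefSeq start of Mt1, 46 and 242 bases after that of Mt2 and 139 bases after that of Mt3. The matches after each RefSeq start lie before these later starts, and which start was used in these samples was not tested. Bases beyond the window were not searched, so the numbers of matches hold for this window only.

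Mt1 was the most abundant of the 4 genes per length. Its level was 170 RPKM in mouse 7, 203 in mouse 8, 148 in mouse 9, 192 in mouse 10 and 309 in mouse 11. RPKM is the read count scaled to gene length and library size, recomputed here with each library's own total and with the gene length that the deposited RPKM imply. Mouse 11 lay above the other 4 mice, which stayed within 148 to 203. The mean was 204 ± 62.3 RPKM, rank 111 among all genes of the table, from a mean of 1830 counts.

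Mt3, the brain-enriched metallothionein, was next and showed another order of mice. Its level was 74.6 RPKM in mouse 7, 139 in mouse 8, 63.7 in mouse 9, 51.0 in mouse 10 and 125 in mouse 11. Mice 8 and 11 were high and mice 7, 9 and 10 low, with no value between 74.6 and 125. The mean was 90.7 ± 39.0 RPKM, rank 353, from a mean of 802 counts, and the highest mouse had 2.74 times the CPM of the lowest (CPM, counts scaled to library size only).

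Mt2, which encodes a protein closely related to that of Mt1, had 48.1 RPKM in mouse 7, 59.9 in mouse 8, 45.2 in mouse 9, 52.5 in mouse 10 and 74.6 in mouse 11. The mice came in the same order as for Mt1, with mouse 11 highest and mouse 9 lowest. The mean was 56.1 ± 11.8 RPKM, rank 726. The highest mouse had 1.65 times the CPM of the lowest, against 2.09 times for Mt1.

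The regulator Mtf1 was expressed at a far lower level and differed little between mice. It had 4.79 RPKM in mouse 7, 4.65 in mouse 8, 5.63 in mouse 9, 5.35 in mouse 10 and 5.14 in mouse 11. Mouse 9, lowest for Mt1 and Mt2, was highest for Mtf1. The mean was 5.11 ± 0.402 RPKM, rank 7775, and the highest mouse had 1.21 times the CPM of the lowest, the smallest ratio of the 4 genes. With trends over GC content and length removed its SD of log2 CPM was 0.14, above the 0.11 of Mt1 and the 0.07 of Mt2. Mouse 11 was then highest for Mtf1, at 0.17 above its mean in log2 CPM, against 0.09 in mouse 9. Because Mtf1 is a long gene, its mean of 742 counts was close to the 802 of Mt3.

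Mt4 had 0 counts in all 5 libraries. At these depths 3 counts, the number a count of 0 allows, correspond to between 0.16 and 0.195 CPM.

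**Figure D1:**
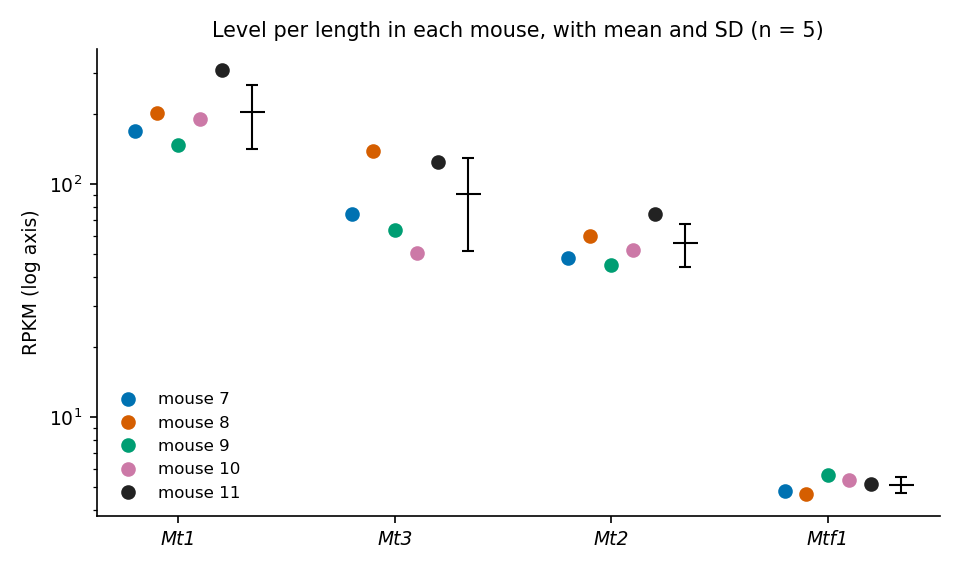
Level of Mt1, Mt3, Mt2 and Mtf1 per length in RPKM (log axis) in each of the 5 mice, with the mean and SD beside the points. Mt1 lies between 148 and 309 RPKM and Mtf1 between 4.65 and 5.63, while the ranges of Mt3 and Mt2 overlap.

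Together Mt1, Mt2 and Mt3 held 2464, 3358, 2181, 2570 and 5157 counts in mice 7 to 11. As a share of all counts this was 0.0158% in mouse 7, 0.0218% in mouse 8, 0.0139% in mouse 9, 0.0160% in mouse 10 and 0.0275% in mouse 11, with a mean of 0.0190% ± 0.00560. The exact binomial 95% interval ran from 0.0133% to 0.0145% in mouse 9 and from 0.0268% to 0.0283% in mouse 11. These intervals cover counting error only. Mt1 made up 58.1% ± 5.26 of the metallothionein counts, Mt3 25.2% ± 6.14 and Mt2 16.7% ± 1.49. The composition of mouse 8 was richest in Mt3, at 34.4%, and that of mouse 10 poorest, at 17.1%.

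Ratios between members were taken within each mouse, so that library size cancels, as log2 ratios of RPKM with a pseudocount of 0.1. Mt1 exceeded Mt2 by 1.84 ± 0.13 on the log2 scale, which is 3.58-fold, in all 5 mice. Mt1 exceeded Mt3 by 1.23 ± 0.49, or 2.35-fold, in all 5 mice, with log2 ratios of 1.18, 0.54, 1.21, 1.91 and 1.31 in mice 7 to 11. For each of these ratios the exact two-sided sign-flip permutation test gave p = 0.0625, the smallest that 5 mice allow, and 0.075 after adjustment over the 6 pairs of members, so the design cannot reach the threshold of 0.05.

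Mt3 and Mt2, neighbours in the order of levels, were not separated. Their log2 ratio was 0.63, 1.22, 0.49, -0.04 and 0.74 in mice 7 to 11, positive in 4 of 5 mice, with a mean of 0.61 ± 0.45 (exact sign-flip permutation p = 0.125, also after adjustment over 6 pairs). Each metallothionein exceeded Mtf1 in all 5 mice, by 5.25 ± 0.44 for Mt1, 4.02 ± 0.70 for Mt3 and 3.41 ± 0.34 for Mt2 on the log2 scale (exact permutation p = 0.0625 each, 0.075 adjusted over the 6 pairs).

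The order of levels depended on the gene length used. The deposited RPKM imply lengths of 540 bases for Mt1, 556 for Mt2 and 538 for Mt3. M21 holds spliced transcripts of about these sizes, with 549 bases for Mt1 and 536 for Mt3. The union of all M21 exons is 1246 bases for Mt1, 588 for Mt2 and 1066 for Mt3, which for Mt1 includes a single-exon transcript of 1085 bases. With union lengths the means were 88.5 ± 27.0 RPKM for Mt1, 53.0 ± 11.1 for Mt2 and 45.8 ± 19.7 for Mt3. The log2 ratio of Mt1 over Mt2 was then 0.71 ± 0.13, and that of Mt3 over Mt2 turned to -0.30 ± 0.45, positive in 1 of 5 mice. Mt1 stayed above Mt2 and Mt3 in every mouse with both lengths, and the order of Mt2 and Mt3 was not settled.

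**Figure D2:**
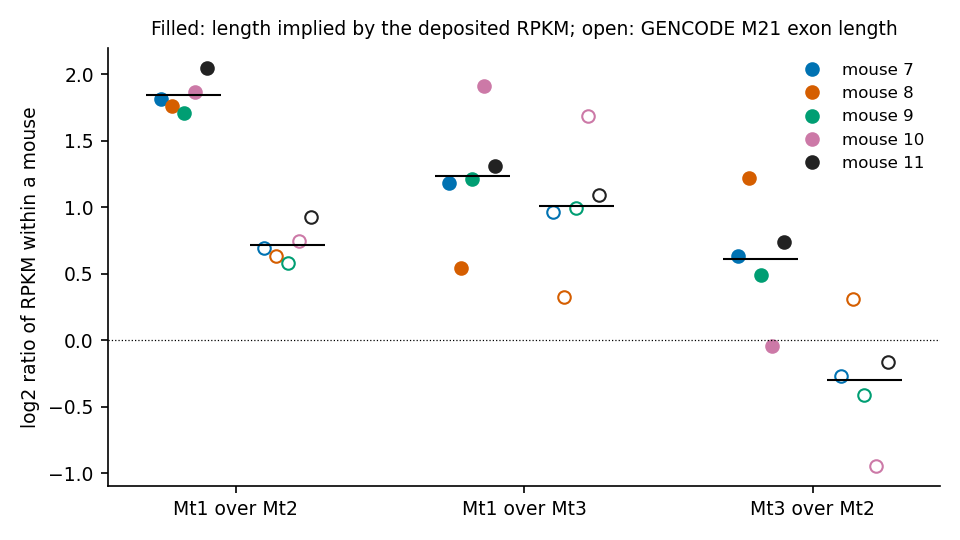
Log2 ratio of RPKM within each mouse for 3 pairs of metallothioneins, with filled points for the length implied by the deposited RPKM and open points for the M21 exon length, and lines at the means. Mt1 over Mt2 has a narrow spread (SD 0.13) and Mt3 over Mt2 changes sign with the length, from a mean of 0.61 to -0.30.

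The ratio of Mt1 to Mt2 varied less between mice than that of Mt1 to Mt3, a difference that was not tested. The count ratio of Mt1 to Mt2 was 3.42, 3.29, 3.17, 3.55 and 4.02 in mice 7 to 11. The count ratio of Mt1 to Mt3 was 2.28, 1.46, 2.33, 3.78 and 2.49 in the same order. The SDs of the log2 ratios were 0.13 for Mt1 over Mt2 and 0.49 for Mt1 over Mt3, or 0.06 and 0.53 with the trends removed. Without mouse 11 the SD of the Mt1 to Mt2 ratio was 0.07. Counting error alone gives an SD of about 0.074 for Mt1 over Mt2 and 0.066 for Mt1 over Mt3. The values of 0.06 and 0.07 are thus no larger than counting error. The SD of the Mt1 to Mt3 ratio was between 0.34 and 0.56 when any 1 mouse was left out, lowest without mouse 8.

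Whether each gene differed between mice more than other genes of its level was tested in edgeR, with a quasi-likelihood fit of an intercept and Benjamini-Hochberg adjustment over 16318 genes. No gene of the table passed an adjusted p of 0.05 (0% called), and 814 genes (4.99%) had an unadjusted p under 0.05. The reference distribution was fitted to these same genes, so that share is largely set by the fit and does not measure how far the mice differ. Of the 4 members, 0 passed and 1 had an unadjusted p under 0.05. That gene was Mt3, with an SD of log2 CPM of 0.63, an unadjusted p of 0.0194 and an adjusted p of 0.969 in edgeR. Mt1 had an SD of 0.41 (edgeR adjusted p = 0.969), Mt2 of 0.30 (adjusted p = 0.987) and Mtf1 of 0.13 (adjusted p = 0.999). Among all genes tested the median SD was 0.30. The SD of Mt3 was at or above that of 88.7% of these genes, that of Mt1 of 70.1%, that of Mt2 of 50.3% and that of Mtf1 of 9.0%.

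The high values of Mt1, Mt2 and Mt3 in mouse 11 were no larger than the median of other short genes with a high GC content. The transcripts closest to the implied lengths have a GC content of 58.1% for Mt1, 55.6% for Mt2, 62.3% for Mt3 and 49.4% for Mtf1. In log2 CPM, mouse 11 lay above the mean of the 5 mice by 0.68 for Mt1, 0.47 for Mt2, 0.60 for Mt3 and 0.05 for Mtf1. For 73 other tested genes shorter than 700 bases with at least 55% GC, the median deviation in mouse 11 was 0.68, and 79.5% of them were highest there. When a smooth trend over GC content and length was removed from each library, the SD of Mt1 became 0.11 and that of Mt2 0.07, and their deviations in mouse 11 became 0.03 and -0.04. Without mouse 11, and with the trends kept, the SDs were 0.19 for Mt1 and 0.16 for Mt2. The part of base composition in these differences was not tested.

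With the trends removed, Mt3 still differed between mice 8 and 10 but was no longer high in mouse 11. Its deviations were 0.05, 0.77, -0.03, -0.52 and -0.27 in mice 7 to 11, against -0.18, 0.70, -0.39, -0.74 and 0.60 with the trends kept. Mouse 8 was highest and mouse 10 lowest on both scales, mouse 11 changed from above to below the mean, and mice 7 and 9 came close to 0. The SD of Mt3 was 0.48 after removal (edgeR unadjusted p = 0.00902, adjusted p = 0.76), where 5.57% of all genes had an unadjusted p under 0.05 and the median SD was 0.23. With the trends kept, leaving out any 1 mouse gave Mt3 an SD between 0.56 and 0.71; this was not run with the trends removed. Mtf1 had deviations of -0.09, -0.16, 0.16, 0.05 and 0.05 with the trends kept. After removal they were -0.11, -0.17, 0.09, 0.02 and 0.17, with an SD of 0.14.

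**Figure D3:**
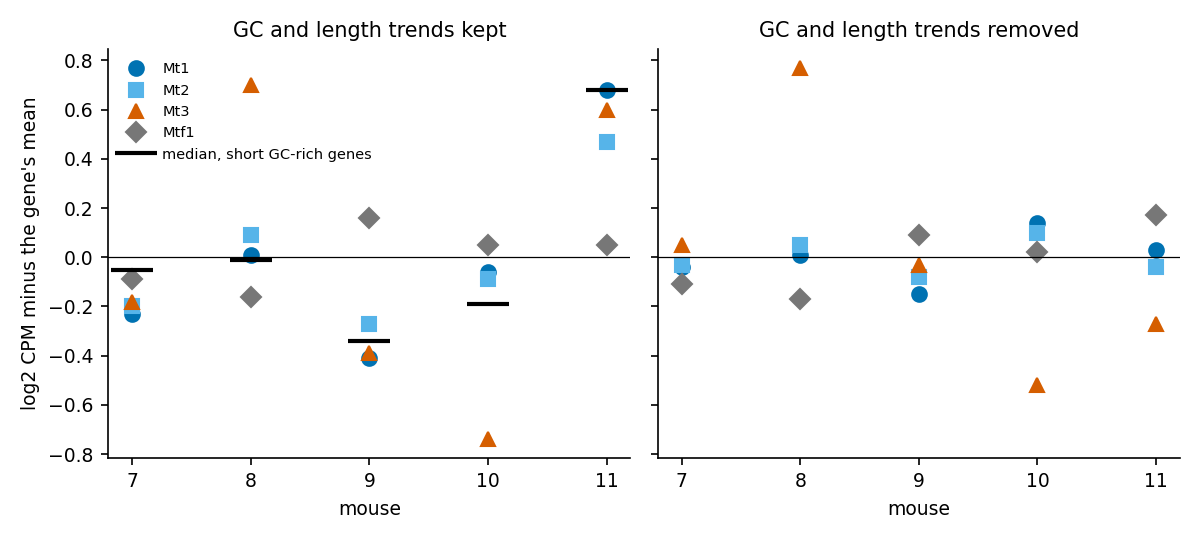
Deviation of log2 CPM from the gene's own mean over 5 mice, for the 4 members in each mouse, with GC and length trends kept (left) and removed (right). Bars on the left give the median of 73 other short GC-rich genes. In mouse 11 this median is 0.68, with Mt1 at 0.68, Mt3 at 0.60 and Mt2 at 0.47. On the right Mt1 and Mt2 lie near 0 in mouse 11 and Mt3 is at -0.27. Mt3 stays at 0.77 in mouse 8 and -0.52 in mouse 10.

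Genes with the most similar pattern were sought among 11193 genes that averaged 100 counts or more, by the root mean square distance of the log2 deviations over the 5 mice. The deviations were not scaled, so genes that differ little between mice lie close to each other, and far from strongly varying genes, whatever their order of mice. With the trends removed the SDs were 0.11 for Mt1, 0.07 for Mt2 and 0.48 for Mt3. Mt2 was rank 201 in closeness to Mt1, at a distance of 0.118, and Mt3 rank 6535, at 0.434. Seen from Mt3 Mt2 was rank 288, at 0.406, and Mt1 rank 472. With the trends removed Mt2 was rank 48 from Mt1 at 0.0496 and Mt3 rank 10957 at 0.474, and from Mt3 the ranks of Mt2 and Mt1 were 3918 and 6048. Closest to Mt1 were Bag3, a co-chaperone of Hsp70 proteins, at 0.0409, Ptger1, a prostaglandin receptor, at 0.0422 and Ctdsp1, a phosphatase, at 0.0427. All 3 had a GC content between 56.1% and 58.5%. Close to Mt2 were Pdlim4 at 0.0119 and 1110038F14Rik at 0.0284, with a GC content of 55.8% and 56.9%.

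Closest to Mt3 was Cartpt, the gene of the CART neuropeptide, at a distance of 0.0801. It had 8.90, 17.8, 7.23, 5.78 and 13.5 RPKM in mice 7 to 11, thus with mouse 8 highest and mouse 10 lowest, as for Mt3. Such a likeness follows from the choice of the gene by its closeness to Mt3. With the trends removed the deviations of Cartpt were 0.71 in mouse 8, -0.65 in mouse 10 and 0.36 in mouse 11, where Mt3 was at -0.27. Gnas, which encodes a stimulatory G protein subunit, and Drap1, a transcriptional corepressor subunit, followed at 0.125 and 0.162. Gnas shares its locus with overlapping transcripts, so its counts are uncertain. Closest to Mtf1 were Bcl2l13 (0.0119), Gga2 (0.0201) and Olfml2a (0.0206).

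The protein-coding neighbours of the cluster did not share the mouse 11 values. Bbs2, a component of the ciliary BBSome, lies 38268 bases before Mt4 and had between 9.29 and 11.7 RPKM in mice 7 to 10 and 7.12 in mouse 11. Nup93, a nuclear pore protein gene 34236 bases after Mt1, had 12.8, 16.8, 16.1, 13.1 and 11.2 RPKM, also lowest in mouse 11.

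Other genes known to be controlled by Mtf1 gave 0 of 9 calls, and 1 of 9 had an unadjusted p under 0.05 (edgeR). The median SD of this list was 0.32, against 0.30 over all genes tested, and its median deviations were -0.25, 0.01, 0.04, -0.02 and 0.18 in mice 7 to 11. Of the 9 genes, 5 were highest and 2 lowest in mouse 11, where 5841 and 5583 of all 16318 genes were highest and lowest. The list was not divided by the direction in which Mtf1 acts on a gene. Slc39a10, which is in this list and in that of zinc transporters, had a deviation of 0.49 in mouse 7 and -0.56 in mouse 11. The most abundant gene of the list was Selenow, a small selenoprotein of redox defence, at 303 ± 112 RPKM. It had 500.3 RPKM in mouse 11 and at most 291 in any other mouse (edgeR adjusted p = 0.969). With the trends removed its deviation in mouse 11 was 0.27, against 0.82 with the trends kept. Slc40a1, the iron exporter ferroportin, was lowest at 1.41 ± 0.191 RPKM. Slc30a1, which exports zinc from cells and is a classical Mtf1 target, was chosen for mention after its values were seen. It had 10.7, 14.1, 13.9, 13.1 and 12.3 RPKM in mice 7 to 11, and an SD of log2 CPM of 0.16. With the trends removed its deviations were -0.34, 0.05, 0.07, -0.01 and 0.23, highest in mouse 11.

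Zinc transporters gave 0 of 20 calls and 0 with an unadjusted p under 0.05 (edgeR), with a median SD of 0.32. Slc39a10, a zinc importer of the cell surface, was most abundant at 40.1 ± 10.4 RPKM and had 54.95 RPKM in mouse 7 and 25.9 in mouse 11. Slc39a4, an importer best known from the gut, was lowest at 0.614 ± 0.260 RPKM. Of the 20 genes, 7 were highest and 9 lowest in mouse 11, where 5841 and 5583 of all 16318 genes were highest and lowest. Genes of copper handling gave 0 of 10 calls, with a median SD of 0.30. Among them Sod1, the copper and zinc superoxide dismutase, had 168 ± 27.5 RPKM and the copper pump Atp7b 0.601 ± 0.125.

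Lists were also made of genes that respond to the other known inducers of Mt1 and Mt2. Glucocorticoid-induced genes gave 0 of 13 calls, with 2 at an unadjusted p under 0.05 (edgeR) and a median SD of 0.37. All 13 were lowest in mouse 7, as were 3805 of the 16318 genes tested. Their median deviations were -0.58 in mouse 7, 0.00 in mouse 8, 0.26 in mouse 9, 0.18 in mouse 10 and 0.30 in mouse 11. Mouse 11, highest for Mt1 and Mt2, thus also had the highest median of this list, while mouse 9, lowest for both, had the next highest. With the trends removed the medians were -0.51, -0.01, 0.32, 0.22 and -0.03 in mice 7 to 11, highest in mouse 9. The most and least abundant genes of this list were Sgk1, a kinase gene, and Plin4, which encodes a lipid droplet protein. Sgk1 had 14.6 RPKM in mouse 7 and at least 26.8 elsewhere, and Plin4 had 0.534 RPKM in mouse 7 and at least 0.900 elsewhere. Genes of the IL-6 and STAT3 response gave 0 of 12 calls, with 3 at an unadjusted p under 0.05 and a median SD of 0.39. Their median deviations were -0.25 in mouse 7, 0.13 in mouse 8, -0.28 in mouse 9, 0.22 in mouse 10 and 0.23 in mouse 11. Mouse 9 was lowest and mouse 11 highest, as for Mt1 and Mt2, and the values in mice 7 and 10 were close to those of mice 9 and 11. With the trends removed the medians were -0.29, 0.05, -0.31, 0.21 and 0.14 in mice 7 to 11, highest in mouse 10. Mt1 and Mt2 were then also highest in mouse 10, at 0.14 and 0.10, and lowest in mouse 9, at -0.15 and -0.08. Little spread was left to rank, with SDs of 0.11 for Mt1 and 0.07 for Mt2. Counting error alone gives about 0.035 and 0.066, so the order of mice for Mt2 is within counting error. A link between the list and these genes was not tested. Gfap, the intermediate filament of astrocytes, had 115 ± 24.4 RPKM and the metalloreductase gene Steap4 0.520 ± 0.182. Nrf2 targets, genes of the oxidant response, gave 0 of 9 calls with a median SD of 0.17. The glutathione transferase gene Gsta4 had 38.3 ± 6.26 RPKM and Hmox1, haem oxygenase 1, 2.89 ± 0.616.

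Markers of cell types, among them those known to make metallothioneins, are given beside these values. The 13 astrocyte markers had median deviations of -0.15, 0.05, 0.00, 0.07 and 0.10 in mice 7 to 11, and their summed level lay between 9692 and 11313 CPM. Glul, glutamine synthetase, had 548 ± 86.9 RPKM and the transcription factor gene Sox9 8.69 ± 2.84. The 10 neuronal markers had medians between -0.02 and 0.06. All 7 ependymal and choroid plexus markers were highest in mouse 11, as were 5841 of the 16318 genes tested. Their median deviation was 0.56 there, or 0.44 with the trends removed, and their summed level lay between 466 and 726 CPM. Of these markers Ttr, transthyretin, had 404 ± 70.5 RPKM and Ccdc153 1.55 ± 0.583. Endothelial markers had a median of 0.09 in mouse 11 and a summed level between 338 and 430 CPM. Red blood cell markers were all 5 lowest in mouse 9, as were 2505 of the 16318 genes tested, Mt1 and Mt2 among them. Of these 5 markers, 4 had an unadjusted p under 0.05 (edgeR), against 4.99% of all genes tested. Microglial and oligodendrocyte markers had medians between -0.22 and 0.15. None of these markers passed in edgeR. In whole tissue, more cells of a type and more RNA per cell cannot be told apart, and the part of cell composition in the metallothionein levels was not tested.

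**Figure D4:**
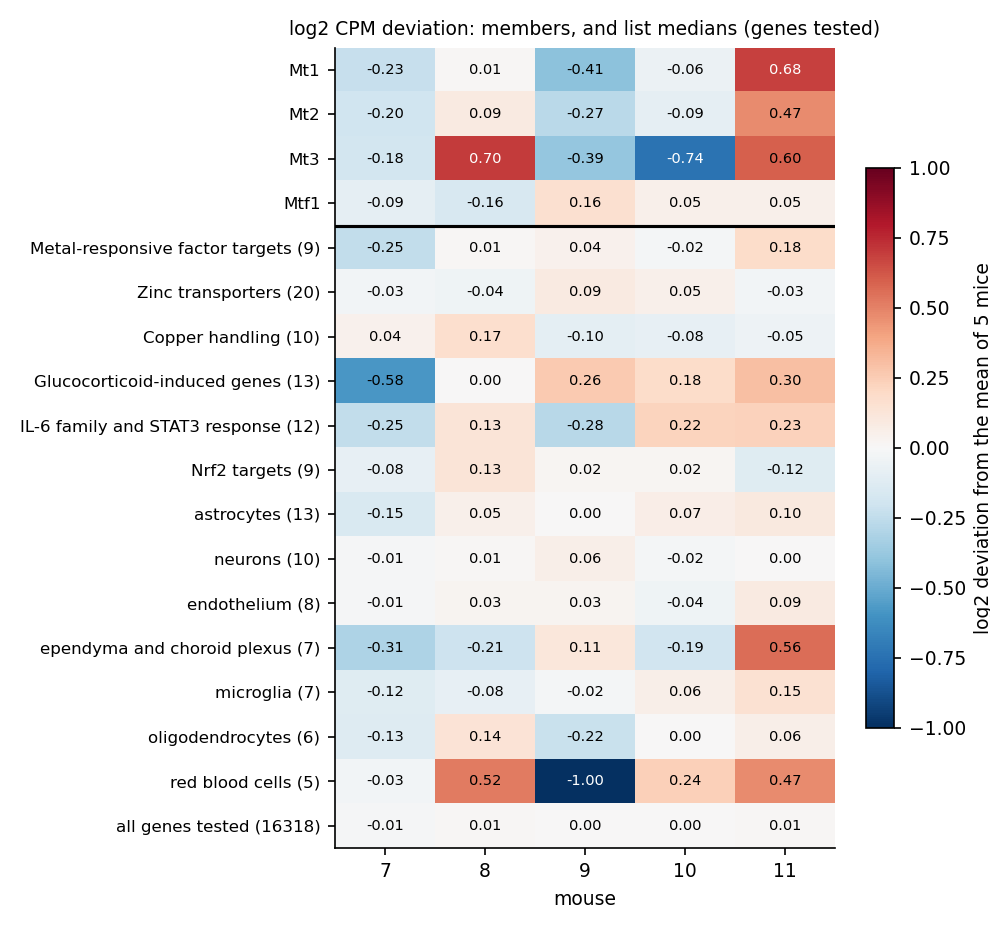
Deviation of log2 CPM from the mean of the 5 mice for the 4 members (above the line) and the median deviation of each gene list (below it, with the number of genes tested), from blue for low to red for high. Mt1 and Mt2 are highest in mouse 11. Mt3 is highest in mouse 8, at 0.70, followed by mouse 11 at 0.60, and the 13 glucocorticoid-induced genes are lowest in mouse 7 with a median of -0.58.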

How the data were processed

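Brain RNA of 5 mice was measured by mRNA sequencing with a multiplex kit from Illumina (per the labels). The values deposited by the authors are read counts for each Ensembl gene, as whole numbers. CASAVA 1.7, STAR 2.4.1d and featureCounts 1.4.6-p4 with GRCm38 are listed in the submitters' processing notes; annotation release and strand setting are not given in the sources used here. The authors also deposited RPKM. Gene lengths implied by these agreed within 1% over the libraries for 0 of 12729 genes with each library's own total, and for all 12729 with the totals taken in turn down the table, so RPKM were recomputed from counts. Symbols, coordinates and exon lengths come from GENCODE M21 (GRCm38) and promoter windows from RefSeq (GRCm38.p6), matched for all 4 genes.

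Variability was tested in edgeR 4.0.16 with TMM scaling, over genes averaging 10 counts or more, each dispersion being compared with an F distribution fitted robustly in limma 3.58.1. Deviations are of log2 CPM (TMM, prior count 1). Trends were removed as natural splines with 5 degrees of freedom in GC content and log length. Tested on simulated data with the fitted spread of dispersions, the procedure found only genes with a very large excess in 1 sample, so that a lack of calls says little about moderate differences. Alternatives included DESeq2 1.42.0 size factors, other filters, pseudocounts and lengths, and leaving out each mouse. After 0 genes had been called, 5 other ways of setting the dispersion were added.

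The members and gene lists were chosen with earlier results of these data known. Named genes are the 4 members, Mt4, the cluster's neighbours, the most and least abundant gene of each list and the 3 genes closest in pattern to each member, of which 1 is not reported here; markers of neurons, endothelium, microglia, oligodendrocytes, blood and liver are given only as far as they bear on the members.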

Additional observations from a re-analysis of the deposited data

Results flagged for a closer look

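Among 46 genes named by rule or beside the members, 4 had 1 mouse far from the other 4, by a gap larger than Dixon's 95% limit relative to the range, and no metallothionein gene nor Mtf1 did. Chance flags about 1 in 20 groups, and 12% of all genes tested met the criterion. In each case mouse 11 was high, the library where 83.6% of tested genes with at least 55% GC were highest. Selenow had 368 CPM there and 175 to 214 in the others. Ctdsp1, among the genes closest to Mt1, had 34.4 CPM against 16.5 to 21.05. The gene antisense to Mtf1, 1110065P20Rik, had 7.64 CPM against 1.85 to 3.02. The glutamate transporter gene Slc17a7, the most abundant neuronal marker, had 1528 CPM against 796 to 998. In the order named, the log2 deviations in mouse 11 were 0.82, 0.72, 1.34 and 0.66. With GC and length trends removed they were 0.27, 0.35, 1.26 and 0.16, and Slc17a7 was highest in mouse 9, at 0.17.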

How the results depend on the processing

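With DESeq2 size factors, library size scaling, a mean count of at least 50, GC and length trends removed, or any 1 mouse left out, 0 genes were called variable in edgeR (584 to 1041 at an unadjusted p under 0.05). The same held for 5 other ways of setting the dispersion, chosen after seeing that 0 genes were called (809 to 814). Without a filter on low counts 229 of 28335 were, and none of the 4 members was among them (Mt3 adjusted p = 0.0773, against 0.278 to 0.975 when 1 mouse was left out). The log2 ratio of Mt3 over Mt2 turned from 0.61 to -0.30 with M21 exon lengths. No other ratio between members changed sign under another pseudocount, another length, the deposited RPKM or a mouse left out. The mean metallothionein share of counts lay between 0.0169% and 0.0203% when 1 mouse was left out, lowest without mouse 11. With RPKM as deposited the SD of Mt2 on the log2 scale was 0.45, against 0.30. No paired comparison between groups of samples was possible because the samples form a single group. A total of 5 mice limits every test of the ratios to p = 0.0625 or more (exact permutation).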
